A study of Homo sapiens with 2 samples.

Results

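The genes described here code for subunits of the SWI/SNF chromatin remodelling complexes: SMARCA4, SMARCA2, ARID1A, ARID1B, ARID2, PBRM1, SMARCC1, SMARCC2, SMARCB1 and SMARCD1. They are 10 of the 20163 protein-coding genes in GENCODE release 44 mapped to hg19, and they were chosen by name. A CHD4 peak was counted for a gene when it overlapped the gene record, or the 2000 bp before its start, by at least 1 bp. By this rule 51 of the 60126 peaks in the deposited list lay at these genes, and 9 of the 10 genes had a peak. Over all protein-coding genes the share with a peak was 58.3%. No test was made of any difference, since there was 1 CHD4 library.

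CHD4 was mapped by ChIP-seq in 501Mel, an established human melanoma cell line grown in medium with 10% foetal calf serum. Chromatin fixed with 0.4% paraformaldehyde gave 1 library from the CHD4 immunoprecipitate and 1 from input chromatin, without replicates. Whether the input served as the control of the peak call was not stated. A peak list of 1 factor measures no expression, so the cell line label was not checked against markers, and the list carries no read counts, so no depth behind each value was computed.

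SWI/SNF complexes use the energy of ATP to slide and evict nucleosomes, and they keep many enhancers and promoters accessible. They are assembled from alternative subunits: ARID1A or ARID1B in the BAF form, and ARID2 with PBRM1 in the PBAF form, each around SMARCA4 or SMARCA2. CHD4 is the remodelling ATPase of another complex, NuRD, which also carries histone deacetylases. In melanocytes and melanoma cells SMARCA4 is a cofactor of MITF, the lineage transcription factor.

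Sequences at peak centres are shown first, as examples of peaks inside the genes. They are from the strongest peak of ARID1A, the strongest of PBRM1 and the only peak of SMARCA4. ARID1B had stronger peaks inside the gene, up to a fold enrichment of 4.39. Each sequence is the plus strand of hg19 over 151 bases, with CG dinucleotides in capitals.
ARID1A (chr1:27049585-27049735): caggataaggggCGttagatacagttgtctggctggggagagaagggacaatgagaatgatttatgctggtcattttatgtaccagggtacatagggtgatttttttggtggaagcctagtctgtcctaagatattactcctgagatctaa
PBRM1 (chr3:52644042-52644192): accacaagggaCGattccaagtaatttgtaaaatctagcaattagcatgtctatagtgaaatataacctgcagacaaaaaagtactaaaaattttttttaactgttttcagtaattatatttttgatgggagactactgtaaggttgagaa
SMARCA4 (chr19:11076218-11076368): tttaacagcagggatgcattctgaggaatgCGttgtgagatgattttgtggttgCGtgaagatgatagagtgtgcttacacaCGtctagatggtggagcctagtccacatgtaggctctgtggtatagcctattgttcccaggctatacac

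The PBRM1 window held 1 CG dinucleotide and 29.8% G and C. The ARID1A window held 1 CG and 43.1% G and C, and the SMARCA4 window 3 CG and 46.4%. Over the whole peak the share was 35.3% at PBRM1, 47.1% at ARID1A and 46.8% at SMARCA4, so PBRM1 was the lower one.

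Peaks were very unevenly spread over the genes. ARID1B had 30 peaks, PBRM1 had 7 and ARID1A had 5. SMARCA2, SMARCB1 and SMARCD1 had 2 each, SMARCA4, SMARCC1 and SMARCC2 had 1 each, and ARID2 had none. ARID1B thus held 58.8% of the peaks on 29.4% of the summed length of the gene windows. Pooled over the genes there were 3.43 peaks per 100 kb, with an exact Poisson 95% interval of 2.56 to 4.52, against 2.75 over all protein-coding genes. Without ARID1B, an exclusion chosen after its values were seen, the pooled density was 2.00 per 100 kb, from 1.24 to 3.06. These intervals cover counting error only, and peaks of 1 gene are not replicates.

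**Figure D1:**
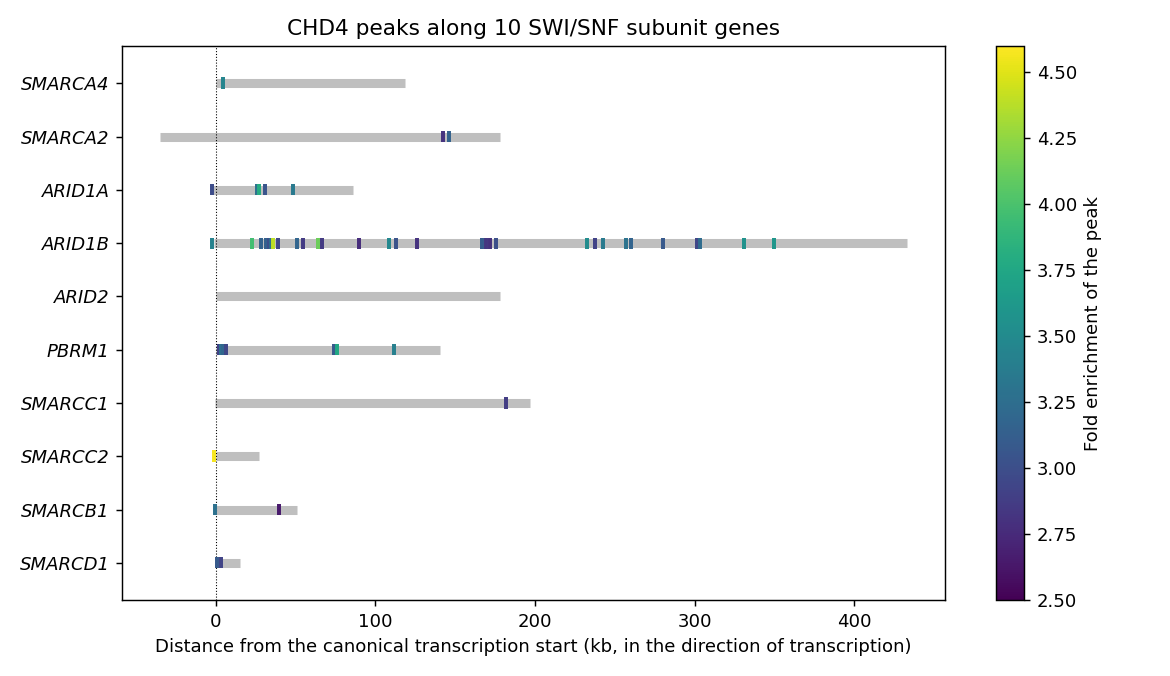
CHD4 peaks along the 10 SWI/SNF subunit genes, by distance of the peak centre from the canonical transcription start in kb (horizontal axis), 1 gene a row. Grey bars are the gene records, ticks are peaks and their colour is the fold enrichment; the 30 peaks of ARID1B spread over most of the gene and ARID2 has none.

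Long genes had more often a peak. Among protein-coding genes of up to 10 kb, 34.8% had one, and among those over 500 kb 86.4%. The gene records of the SWI/SNF list had a median length of 129530.5 bp, against 27219 bp over all protein-coding genes. The 9 of 10 was therefore also read against genes whose length was within 25% of each member. Of such genes, the share with a peak ran from 54.5% for the length of SMARCD1 to 83.8% for the length of ARID1B. Over the 10 genes these shares sum to 7.40 genes.

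**Figure D2:**
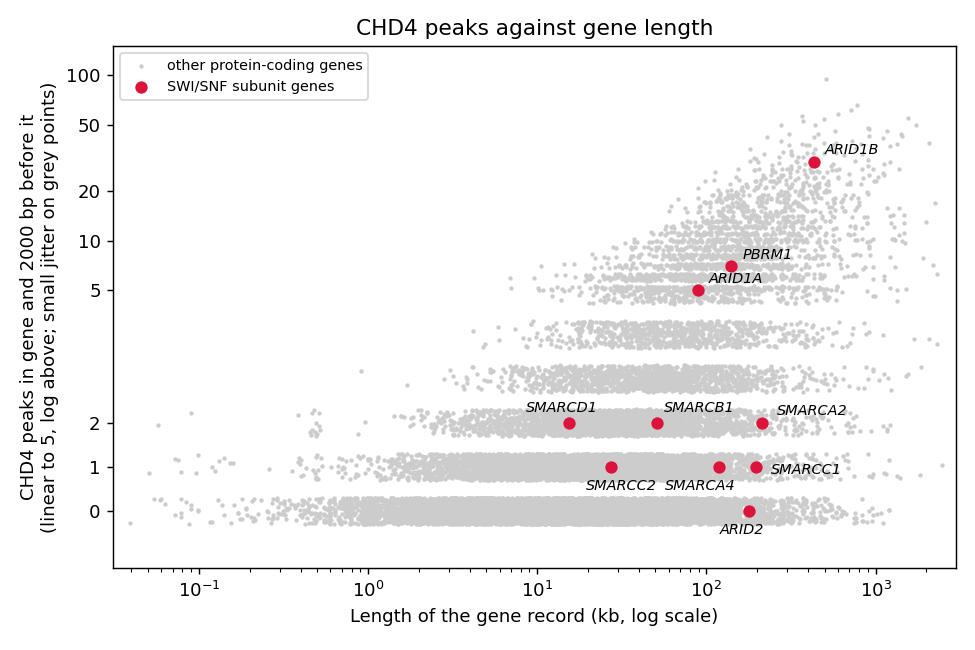
Number of CHD4 peaks in each protein-coding gene and the 2000 bp before it (vertical axis, linear to 5 and logarithmic above) against the length of the gene record in kb (logarithmic). Red points are the SWI/SNF subunit genes and grey points the other protein-coding genes; ARID1B with 30 peaks is among the higher counts for its length.

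The strength of the peaks was close to that of all peaks. Each peak carries a fold enrichment, the ratio of the ChIP signal to the background computed by the peak caller, and a q value given as its −log10. The median fold enrichment of the 51 peaks was 3.15, with a range from 2.64 to 4.57, against a median of 3.09 over all 60123 peaks on chromosomes 1 to 22, X and Y. A −log10 q of at least 2, which is a q of 0.01 or lower, was reached by 23 of the 51 peaks (45.1%) and by 48.5% of all peaks. A −log10 q of 5 was reached by 1 of the 51, the SMARCC2 peak (1.96%), and by 2.23% of all peaks.

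**Figure D3:**
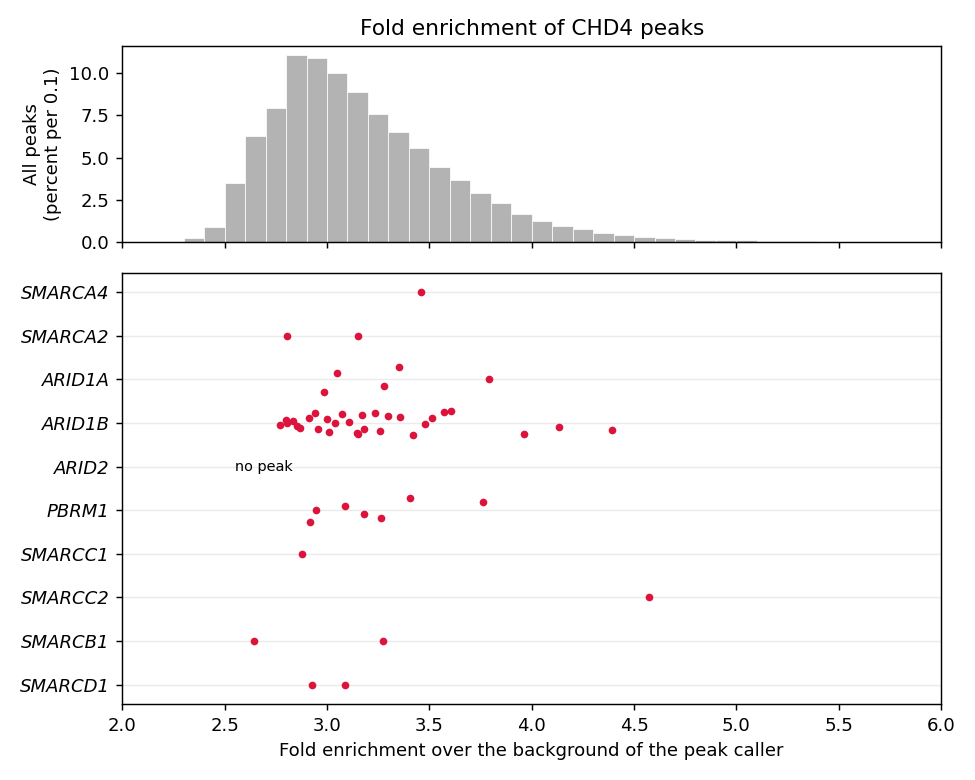
Fold enrichment of CHD4 peaks (horizontal axis) over all peaks of the list, as the percent of peaks in bins of 0.1 (upper plot, drawn from 2 to 6), and of each peak at the SWI/SNF subunit genes, 1 point a peak and 1 gene a row (lower plot). The points lie between 2.64 and 4.57, SMARCC2 being the highest; vertical spread within a row only separates points.

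Of the ATPase genes, SMARCA4 (BRG1) had 1 peak and SMARCA2 (BRM) had 2, none at the canonical start. The SMARCA4 peak was a short one of 171 bp in intron 1, chr19:11076208-11076378, 4502 bp after the start, with a fold enrichment of 3.46 (−log10 q 2.42). The rest of SMARCA4 was without a peak over 113724 bp. Its density of 0.830 peaks per 100 kb, with an interval of 0.0210 to 4.62, lay below the 6.20 per 100 kb in the 1 Mb on each side. Chromosome 19 as a whole had 4.10 per 100 kb. Genes of the length of SMARCA4 had a median of 2 peaks, and 75.8% of them had at least 1. SMARCA4 thus had few peaks against its neighbourhood, but a number common among genes of its length.

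The SMARCA2 peaks lay deep in the gene. The peak at chr9:2157639-2158414, in intron 27 and 142292 bp after the canonical start, held 4 annotated alternative starts of SMARCA2 and had a fold enrichment of 2.81. The other, at chr9:2161406-2161984, covered 218 bp of exon 28, with a fold enrichment of 3.15. Neither reached a −log10 q of 2. Genes of the length of SMARCA2 had a median of 4 peaks, and 71.2% of them had at least 2.

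ARID1A, a DNA-binding subunit of the BAF form and a frequent target of mutation in cancer, had peaks at its start and in introns 1 and 4. The start peak, chr1:27018518-27022406, was 3889 bp long and ended 100 bp before the canonical start. Its fold enrichment was 2.99. It also held the start of another ARID1A transcript and those of 2 long noncoding RNA genes, ENSG00000260063 and ENSG00000290006. The strongest ARID1A peak was in intron 1, chr1:27049204-27050116, with a fold enrichment of 3.79 (−log10 q 4.02). It was 1 of 3 peaks in that intron, between 25642 and 30682 bp after the start. Of the 5 ARID1A peaks, 4 reached a −log10 q of 2.

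ARID1B, the paralogue that replaces ARID1A in part of the BAF complexes, was the gene with the most peaks on the list. Its 30 peaks ranked it 59 among all protein-coding genes by number. Among the 444 protein-coding genes within 25% of its length, the median was 5 peaks and 21 genes (4.73%) had at least 30. ARID1B had 6.87 peaks per 100 kb, with an interval of 4.63 to 9.81, against 2.80 in its flanks. ARID1B was the only 1 of the 10 genes whose interval lay above its flank value.

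The ARID1B peaks fell in the upstream region and introns 1 to 6. Intron 4 held 12 of them, intron 1 held 8 and intron 2 held 6. Introns 3, 5 and 6 held 1 each. Counted in steps of 50 kb from the start of the gene record, the numbers of peak centres were 7, 5, 3, 4, 3, 3, 3, 1 and 0. The last 83554 bp of ARID1B had no peak. A gap of 56297 bp within intron 4 separated peaks 20 and 21, while peaks 4 to 7 followed each other at 772, 699 and 700 bp.

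ARID1B stood out by the number of its peaks and not by their strength. Their fold enrichment had a median of 3.15, and 13 of 30 reached a −log10 q of 2. The strongest were short: peak 7, in intron 1, was 153 bp long with a fold enrichment of 4.39, and peak 11, chr6:157162848-157163009, was 162 bp long with 4.13. Short peaks of up to 200 bp made up 23.3% of the ARID1B peaks and 10.2% of all peaks. The longest ARID1B peak, chr6:157427287-157432054, was 4768 bp long, centred in intron 5, and covered 90 bp of exon 6, with a fold enrichment of 3.57. The peak before the start, chr6:157094288-157097917, was 3630 bp long, ended 595 bp before the canonical start and had a fold enrichment of 3.42. It held an annotated start of ARID1B and that of the long noncoding RNA gene ENSG00000271265.

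ARID2 and PBRM1, which define the PBAF form, differed. ARID2 had no peak in 180335 bp, whereas 81.7% of the 1297 protein-coding genes of its length had one. Its flanks were poor in peaks as well, at 0.450 per 100 kb, and the interval for ARID2 reached from 0 to 2.05. The nearest peak, chr12:46332416-46332567, lay 30593 bp outside the gene window and had a fold enrichment of 3.64.

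PBRM1, a subunit with several bromodomains, had 7 peaks and 4.91 per 100 kb, from 1.97 to 10.1, against 2.80 in its flanks. Of these, 4 were centred in the first 6269 bp, in intron 1 and at exon 2, the nearest beginning 1616 bp after the start. The one at exon 2, chr3:52713462-52713858, held 2 annotated alternative starts of PBRM1. Of these 4, the 3 nearest the start also overlapped GNL3, which codes for the nucleolar GTPase nucleostemin and is transcribed in the opposite direction, and the one at chr3:52714848-52715479 held a start of GNL3. For these 3 peaks PBRM1 and GNL3 cannot be told apart as the target. The strongest PBRM1 peak was far from the start, chr3:52643635-52644600, centred in intron 17 and covering 337 bp of exon 18, with a fold enrichment of 3.76 (−log10 q 3.12). Another in intron 17, chr3:52645423-52646249, had a fold enrichment of 3.09. The last lay in intron 24, with 3.41, where it also overlapped UQCC5, a gene named after its values were seen. In the same way ARID1B peaks 1 and 29 overlapped the long noncoding RNA genes ENSG00000271551 and ENSG00000233044.

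The core subunit genes had 1 or 2 peaks each, and these differed in place. Protein-coding genes of like length had a median of 4 peaks for SMARCC1, which had 1, and a median of 1 for SMARCC2, SMARCB1 and SMARCD1. At least 2 peaks, as at SMARCB1 and SMARCD1, were found in 41.4% and 23.7% of the genes of their length. SMARCC2, a scaffold subunit of the core, had 1 peak of 1234 bp before its start, chr12:56583722-56584955, which ended 455 bp from the canonical start. It had the highest fold enrichment of the 51 peaks, 4.57 (−log10 q 5.09), and 98.7% of all peaks were lower. It also held the start of the long noncoding RNA gene ENSG00000258199. A further peak with a fold enrichment of 3.85 lay 903 bp beyond the SMARCC2 window. Its paralogue SMARCC1 had a single peak of 392 bp in intron 26, 181973 bp after the start, with a fold enrichment of 2.88 (−log10 q 1.42). The paralogues SMARCC1 and SMARCC2 thus had their peaks at opposite ends of the gene. The SMARCC1 peak did not reach a −log10 q of 2, so this contrast rests on a weak peak.

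SMARCB1, the core subunit lost in rhabdoid tumours, had a peak of 473 bp that ended 137 bp before the start, chr22:24128544-24129016, with a fold enrichment of 3.27 (−log10 q 2.81). Its other peak, in intron 7, had a fold enrichment of 2.64, the lowest of the 51. SMARCD1 had a peak over its start, chr12:50478695-50481229, which covered 643 bp of exons 1 to 5 and 6 annotated starts of the gene, with a fold enrichment of 3.09. Its other peak, in intron 6 and exon 6, had 2.93. SMARCD1 had the highest density, 11.4 per 100 kb, but in a short gene with an interval of 1.38 to 41.3.

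**Figure D4:**
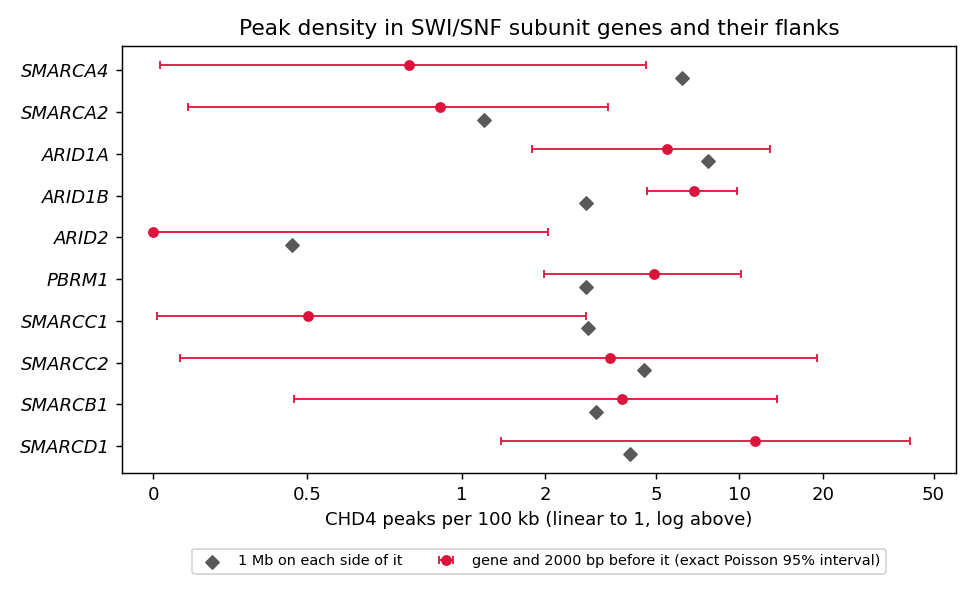
CHD4 peaks per 100 kb in each SWI/SNF subunit gene with the 2000 bp before it (red, with exact Poisson 95% intervals) and in the 1 Mb on each side of that window (grey diamonds); the axis is linear to 1 and logarithmic above. ARID1B lies at 6.87 against 2.80, and SMARCA4 at 0.830 against 6.20.

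Against their flanks, 4 genes had more peaks per 100 kb and 6 had fewer. The flank value lay outside the Poisson interval for ARID1B, SMARCA4 and SMARCC1. For SMARCC1 the gene had 0.503 per 100 kb, with an upper bound of 2.80, and its flanks 2.85. For the other 7 genes the flank value lay inside the interval.

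A peak within 1000 bp of the canonical start was found at 5 of the 10 genes: ARID1A, ARID1B, SMARCC2, SMARCB1 and SMARCD1. Over the 19881 protein-coding genes with a canonical transcript the share was 35.1%. At ARID1A, ARID1B, SMARCC2 and SMARCB1 the peak lay wholly before the start and ended 100 to 595 bp from it. At SMARCD1 the peak covered the start. Among the 6972 protein-coding genes with a start peak of any q, it lay only before the start in 47.6% and covered it in 35.2%. The position of the start peaks at these genes was thus also the most frequent one elsewhere. Counting only peaks that reach a −log10 q of 2, 3 of the 10 genes had a start peak, ARID1B, SMARCC2 and SMARCB1, and over protein-coding genes 21.6%.

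**Figure D5:**
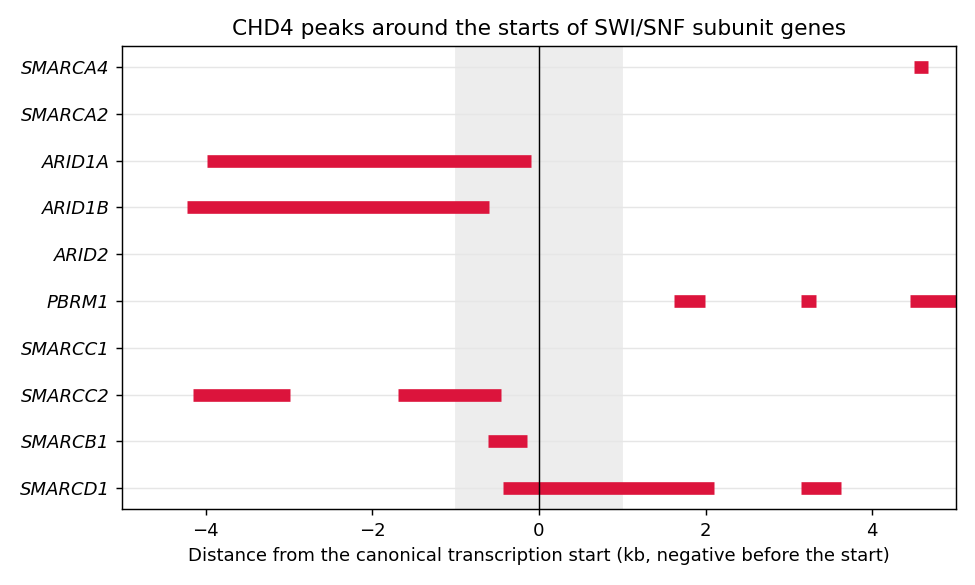
CHD4 peaks (red bars) within 5 kb of the canonical transcription start of each SWI/SNF subunit gene, by distance from the start in kb, 1 gene a row; the shaded band marks 1000 bp on each side. At ARID1A, ARID1B, SMARCC2 and SMARCB1 the nearest peak ends before the start, and at SMARCD1 it covers it.

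The bases from the last 50 of the peak to the base before the start are shown for ARID1A and SMARCB1. Both are on the plus strand of hg19, with CG dinucleotides in capitals.
ARID1A (chr1:27022357-27022505): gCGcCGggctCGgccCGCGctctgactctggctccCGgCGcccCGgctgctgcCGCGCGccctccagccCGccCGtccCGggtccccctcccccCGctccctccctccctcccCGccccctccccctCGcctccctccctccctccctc
SMARCB1 (chr22:24128967-24129152): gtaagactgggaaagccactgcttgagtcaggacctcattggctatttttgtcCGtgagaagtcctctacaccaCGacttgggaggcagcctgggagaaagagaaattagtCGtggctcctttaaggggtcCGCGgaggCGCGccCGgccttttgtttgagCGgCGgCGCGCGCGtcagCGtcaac

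The ARID1A sequence had 17 CG dinucleotides in 149 bases, of which 8 lay within the 50 bases of the peak. The end of the ARID1A peak was thus itself rich in CG. The SMARCB1 sequence had 15 in 186 bases, and none of these lay wholly within the peak. The peaks themselves were poorer in CG than the starts: the ratio of observed to expected CG was 0.586 over the ARID1A peak and 0.749 within 250 bp of the ARID1A start, and 0.214 and 0.899 at SMARCB1.

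Within 250 bp of the start, the share of G and C ran from 61.3% at SMARCA2 to 80.4% at SMARCA4, against a median of 64.7% over protein-coding genes. The ratio of observed to expected CG ran from 0.749 at ARID1A to 1.14 at SMARCA4, against a median of 0.778 over protein-coding genes. The median was passed by 9 of the 10 genes, all but ARID1A. Among the genes without a start peak, SMARCA4 had 1.14, SMARCC1 1.09, SMARCA2 0.965, PBRM1 0.961 and ARID2 0.878. Among those with one, ARID1B had 0.965, SMARCC2 0.906, SMARCB1 0.899, SMARCD1 0.873 and ARID1A 0.749. Both groups overlapped. Over protein-coding genes the median was 0.832 with a start peak and 0.714 without. The 5 start peaks had a median length of 2535 bp and 52.0% G and C. The other 46 peaks had a median of 531 bp and 42.1%. Over all peaks, those at protein-coding starts had a median of 676 bp and 54.1% and the rest 605 bp and 42.9%. The difference in G and C was thus general, and the difference in length was not as large there.

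Motifs were searched on both strands within 250 bp of the peak centres. The M-box TCATGTG, whose reverse complement is CACATGA and which MITF can bind, was found in 7 of the 51 peaks (13.7%, Wilson 95% interval 6.81% to 25.7%), against 11.0% of all peaks. All 7 were ARID1B peaks, 23.3% of the 30. In windows of the same length tiled over ARID1B the share was 8.73%, and in all peaks away from protein-coding starts it was 11.9%. That ARID1B was singled out here was decided after its values were seen, and its peaks are not replicates. These shares are therefore a description, and no difference between them was tested. The matches with 20 bases on each side follow on the plus strand of hg19, the motif in capitals.
ARID1B peak 2 (chr6:157121292-157121338): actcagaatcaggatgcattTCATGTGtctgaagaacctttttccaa
ARID1B peak 5 (chr6:157132327-157132373): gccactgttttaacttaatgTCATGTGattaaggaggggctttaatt
ARID1B peak 10 (chr6:157153223-157153269): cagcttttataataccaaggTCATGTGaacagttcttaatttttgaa
ARID1B peak 13 (chr6:157188261-157188307): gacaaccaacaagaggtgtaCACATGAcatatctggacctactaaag
ARID1B peak 26 (chr6:157379129-157379175): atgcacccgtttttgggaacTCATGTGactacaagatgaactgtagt
ARID1B peak 28 (chr6:157402114-157402160): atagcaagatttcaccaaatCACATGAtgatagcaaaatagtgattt
ARID1B peak 29 (chr6:157429705-157429751): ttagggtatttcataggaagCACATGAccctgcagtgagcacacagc

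These ARID1B matches lay from 51 to 200 bp from the peak centre, 5 of them inside the peak and 2, of peaks 2 and 5, outside it. The 5 peaks with the match inside were in introns 2, 4 and 5, and their fold enrichment ran from 2.77 in peak 13 to 3.57 in peak 29. The strongest ARID1B peak, peak 7, had no M-box within 250 bp of its centre. A match is a description of the letters and was not tested as a binding site.

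The AP-1 motif TGACTCA, with its reverse complement TGAGTCA, was found in 6 of the 51 peaks (11.8%) against 10.8% of all peaks. They were peaks of SMARCA2, ARID1A, ARID1B, PBRM1 and SMARCB1. The E-box CACGTG, which reads the same on both strands, was found in 3 peaks (5.88%), of SMARCA2, ARID1A and ARID1B, against 7.97%. Among the ARID1B peaks alone, 6.67% held the AP-1 motif and 3.33% the E-box, both below the shares of all peaks. The SOX motif AACAATGG, with its reverse complement CCATTGTT, was found in 2.39% of all peaks and in none of the 51. A CTCF consensus was found in 1.49% of all peaks and in none of the 51. With 51 peaks, a count of 0 has a Wilson upper bound of 7.005%.

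A list of 20 other SWI/SNF subunit genes, which leaves out ACTB with its 10 peaks, had a peak at 13 (65.0%, against 58.3% of protein-coding genes) and a start peak at 8 (40%, against 35.1%). The shares among genes of like length sum to 13.0 of the 20, the number found. Their 35 peaks gave 2.86 per 100 kb, from 1.99 to 3.98, against 2.75 over protein-coding genes, with a median fold enrichment of 3.05. BICRA, a subunit of the noncanonical form, had the strongest peak, chr19:48119341-48119620, with a fold enrichment of 5.57. BCL7A and BCL7C, small accessory subunits, followed at 4.34 and 4.04. SMARCD3, ACTL6B, DPF3, PHF10, BCL7B, SS18 and BCL11B had no peak. ACTL6B and DPF3 are known as subunits of specialised tissues, neurons and muscle, and PHF10 as a PBAF subunit.

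The NuRD genes, which code for the complex CHD4 itself belongs to, had more peaks per 100 kb. Of 15 genes, 13 had a peak (86.7%, against 58.3% of protein-coding genes) and 11 a start peak (73.3%, against 35.1%). The shares with a peak among genes of like length sum to 9.93 of the 15. Their 59 peaks gave 5.56 per 100 kb, from 4.23 to 7.17, against 3.43 for the SWI/SNF subunit genes. The NuRD genes were also shorter, with a median of 44443 bp. CHD4 had the strongest peak of the NuRD list at its own gene, chr12:6716787-6718262, with a fold enrichment of 5.38. MTA3, a scaffold of the complex, had 4.46, and CDK2AP1, an accessory subunit, had 4.40. MTA1 and MBD2 had no peak. The median fold enrichment of the NuRD peaks was 3.11, close to the 3.15 of the SWI/SNF subunit genes. No difference between these lists was tested.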

How the data were processed

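The authors fixed 501Mel chromatin, sequenced 1 CHD4 ChIP library and 1 input library and deposited 1 list of broad peaks. The submitters' processing notes name bcl2fastq 2.17.1.14, Bowtie 1.0.0, MACS2 2.1.1.20160309 and the build hg19. The labels name a NEXTflex library kit. The paper names another kit and another Bowtie version and states library depths, and these were not used here. It also states a q threshold, and the −log10 q of 2 used here as a filter has the same value. The lowest −log10 q on chromosomes 1 to 22, X and Y was 1.004, so the list also holds regions with a q above 0.01. The authors' fold enrichment is a ratio of ChIP over background, and the deposited −log10 p and −log10 q are those of the peak caller. Fold enrichment and −log10 q served to describe and filter peaks. The 3 mitochondrial peaks were left out of the comparisons.

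Overlaps used 1-based positions, GENCODE release 44 mapped to GRCh37 and the sequence of that build. The canonical transcript was the one marked so by Ensembl, and 282 protein-coding genes without one were left out of counts at starts. Shares have Wilson and densities exact Poisson intervals at 95%. The members and lists were chosen with earlier results of these data known. Genes named are all 10 members, every gene with an annotated start inside a peak of theirs and, of each other list, the 3 with the highest fold enrichment and every gene without a peak. UQCC5, ACTB, DPF1, DPF2, SS18L1, ENSG00000271551 and ENSG00000233044 were named outside this rule, after their values were seen. Base composition at starts, the place of start peaks, motif shares in tiled windows and the sums of shares over genes of like length were added after seeing the data. The overlap code was tested on simulated data. Alternatives were stricter thresholds, other windows, merged peaks and other starts. Sequence was read with pysam 0.24.0, intervals came from scipy 1.17.1, tables from pandas 2.3.3 with numpy 2.4.6 and plots from matplotlib 3.10.9, under Python 3.11.15.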

Additional observations from a re-analysis of the deposited data

How the results depend on the processing

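No paired analysis was possible because there was 1 CHD4 library and 1 input library and no result comes from a test. With peaks of −log10 q of at least 2, the 10 genes had 23 peaks, 1.55 per 100 kb, with a median fold enrichment of 3.42, and 3 genes had a start peak; 43.2% of protein-coding genes had a peak and 21.6% a start peak. With a −log10 q of at least 5 there was 1 peak at 1 gene, SMARCC2, 0.0673 per 100 kb, at a fold enrichment of 4.57, and it was also the 1 start peak; 2 of the other SWI/SNF genes and 3 NuRD genes had a peak, as did 4.73% of protein-coding genes, 1.64% at the start. With a fold enrichment of at least 4 there were 3 peaks at 2 genes, SMARCC2 and ARID1B, 0.202 per 100 kb, with a median of 4.39, and 1 gene had a start peak; 5 other SWI/SNF and 4 NuRD genes had a peak, as did 10.2% of protein-coding genes, 3.44% at the start. All these settings keep fewer peaks by construction.

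Without the 2000 bp before the gene the highest fold enrichment was 4.39, at ARID1B, since the SMARCC2 peak lies before its gene, and 50.8% of protein-coding genes had a peak. That share was 60.6% with 5000 bp before the gene and 57.5% where at least 50% of a peak had to lie inside. A start peak was found at 4 of the 10 genes and 29.8% of protein-coding genes within 500 bp, where ARID1B lost it, at 6 and 39.8% within 2000 bp, where PBRM1 gained one, and at 7 and 43.0% with any annotated start, where SMARCA2 and PBRM1 gained one. Without ARID1B, an alternative chosen after seeing the data, there were 21 peaks and 2.00 per 100 kb. The count of 9 genes with a peak fell to 6 at a −log10 q of 2 and to 8 without the upstream bases. Of the alternative values, 38 stayed within 1.5 times the reported count, within the interval of the reported value or, for the highest fold enrichment, at the same value, and 33 did not. The list gives no read counts, so what depth limits was not computed.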
